A study of Homo sapiens with 4 samples.

Results

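Of the 58051 genes counted in these libraries, 112 protein-coding genes carry the symbol of an orphan or adhesion G protein-coupled receptor. They were chosen by symbol: GPR followed by a number, GPRC5A to GPRC5D, or ADGR followed by a letter and a number, with 25 further matches left out because GENCODE 29 does not list them as protein coding. The match on letters also takes in GPR15LG, a secreted peptide that activates a receptor, and the read-through gene GPR75-ASB3. It leaves out GPR1, whose current symbol is CMKLR2. The libraries are polyA RNA from A549, an established human lung carcinoma line, in which a doxycycline-inducible A-FOS gene had been inserted at random with the piggyBac transposase. The 2 groups, with 2 libraries each, were A549 with the A-FOS insertion and no treatment (minus Dox) and the same line given doxycycline at 1 µg/mL (plus Dox). The A-FOS protein is a dominant-negative form of FOS that pairs with JUN proteins and keeps them off DNA, so the comparison asks what these receptor genes do when AP-1, the family of FOS and JUN dimers, is blocked. All 4 libraries carry the insertion, none comes from unmodified A549, and the promoter that drives A-FOS, the duration of treatment and whether the cells are 1 clone were not given in the sources used here. Doxycycline and A-FOS cannot be told apart.

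G protein-coupled receptors cross the membrane repeatedly and pass signals to heterotrimeric G proteins and arrestins. Orphan receptors are those with no agreed natural ligand, although ligands have been described for many that keep a GPR symbol. Adhesion receptors carry a long extracellular part that binds matrix or neighbouring cells and that most of them cleave themselves near the membrane, which leaves a tethered peptide that can switch on the receptor. GPRC5 receptors belong to the glutamate receptor class, have a short extracellular end, and were first found as genes induced by retinoic acid. GPRC5A is known in the lung as a tumour suppressor of the epithelium.

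Total counts ranged from 31104964 to 40526912 per library. Levels are CPM, read counts scaled to library size with TMM (a correction for library composition), and p-values come from edgeR's quasi-likelihood test, adjusted over 18046 tested genes with a threshold of 0.05. The labels do not say that the 2 libraries of a group are separate cultures, so these p-values reflect the spread among these samples alone, and that spread may be technical. Reads counted to FOS were at 1.36 and 1.52 CPM in minus Dox and at 48.6 and 51.0 CPM in plus Dox. All 7 epithelial markers were detected, from KRT8 at 3607 to 5328 CPM down to EPCAM at 1.90 to 3.55 CPM, and their summed level went from 12634 and 12975 to 6502 and 6306 CPM, with 5 lower and 1 higher. The 7 alveolar type 2 markers summed to 120 and 127 CPM in minus Dox and 92.4 and 91.1 CPM in plus Dox. Nearly all of it was ABCA3 (116 and 124 against 87.4 and 87.2 CPM, called lower). LAMP3 was called higher (0.385 and 0.720 against 2.76 and 1.61 CPM), and the surfactant gene SFTPA1 was at 0 in all libraries. Leukocyte markers summed to 5.43 to 6.88 CPM over 9 genes with CD3E and MS4A1 at 0, endothelial markers to 0.805 to 2.11 CPM, and fibroblast markers to 39.2 to 49.1 CPM, most of it COL1A1. Neuronal markers summed to 69.6 to 75.6 CPM, mostly SYT1, with STMN2 at 0, and glial markers to 46.9 to 53.4 CPM, mostly MBP. Of the endothelial and neuronal markers 1 each was called higher (VWF and SYT1) and 2 each were called lower. Leukocyte and fibroblast markers had 1 each called lower (CD14 and COL1A1), and no glial marker was called. In bulk RNA, fewer cells of a type and less RNA per cell cannot be told apart.

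Expression of the receptor genes was concentrated in a few of them. The low-count filter kept 56 of the 112 genes for testing, 22 had 0 counts in all 4 libraries, 19 had 1 to 9 counts in all and 15 had 10 to 33. Only 4 genes, GPRC5A, ADGRG1, ADGRG6 and GPR107, averaged over 100 CPM in a group, 25 were over 10 CPM, and another 19 were between 1 and 10 CPM. Summed over all 112 genes the level was 2209 and 2225 CPM in minus Dox and 1535 and 1532 CPM in plus Dox. GPRC5A alone made up 34.2% and 33.7% of that sum without doxycycline and 8.66% and 8.62% with it. Without GPRC5A the sums were 1454 and 1475 CPM against 1402 and 1400 CPM, so the lower total lay largely in this 1 gene. Adhesion receptors together gave 831 and 841 CPM against 776 and 773 CPM, and the GPR genes 495 and 506 CPM against 565 and 564 CPM.

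**Figure D1:**
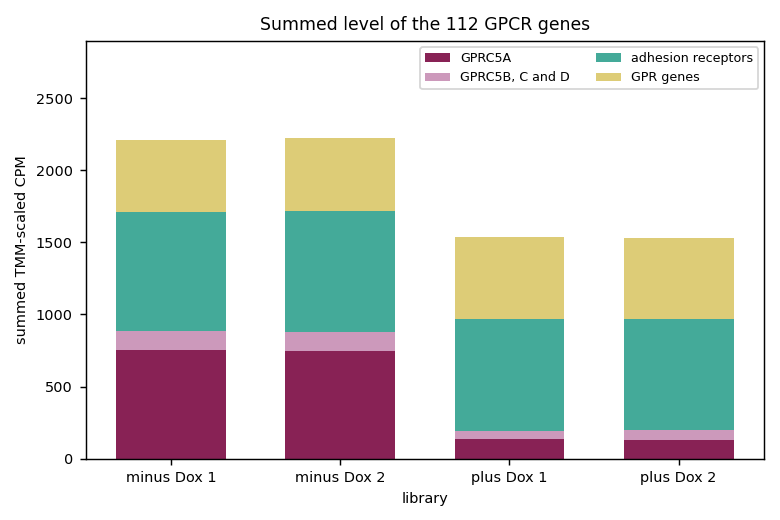
Summed TMM-scaled CPM of the 112 receptor genes in each of the 4 libraries, stacked by GPRC5A, the other GPRC5 genes, adhesion receptors and GPR genes. The GPRC5A segment shrinks from 755 and 749 CPM in minus Dox to 133 and 132 CPM in plus Dox, while the adhesion and GPR segments change little in height.

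By level per kilobase of exon (CPM divided by the length of all annotated exons of the gene), GPRC5A had rank 1 in minus Dox at 89.1 and rank 6 in plus Dox at 15.7. ADGRG1 had rank 2 at 39.7 and then rank 3 at 24.3. GPR107, GPR108 and ADGRG6 lay close together in minus Dox, at 21.2, 20.8 and 20.7, and at 25.8, 17.5 and 27.7 in plus Dox, where ADGRG6 ranked first. The next genes, GPR137 and ADGRE5, held nearly the same level per kilobase in both groups, 16.1 and 15.9 for GPR137 and 13.8 and 13.1 for ADGRE5. The receptor genes that this line expresses most were a GPRC5 gene, a pair of adhesion G receptors and proteins of inner membranes.

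**Figure D2:**
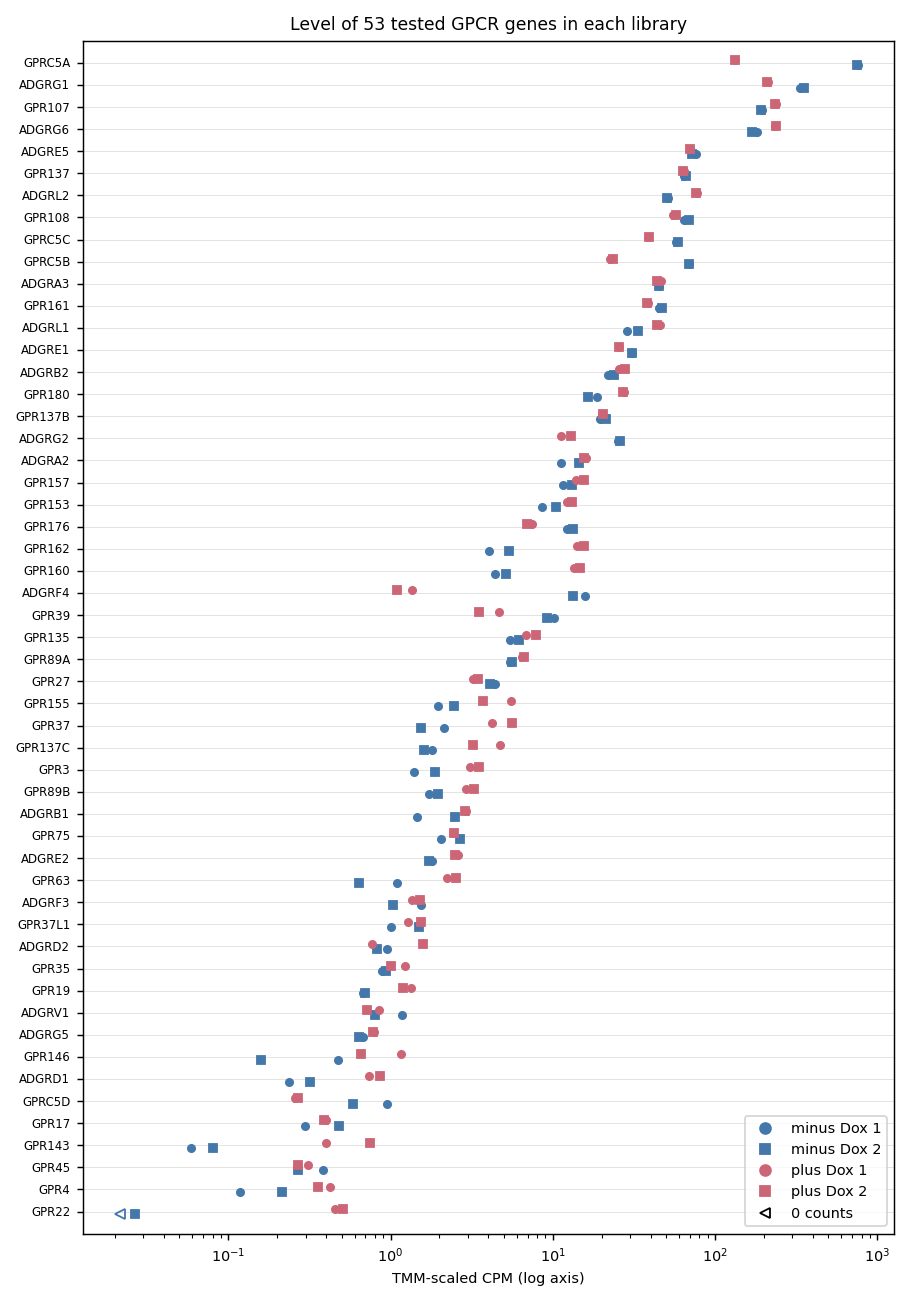
TMM-scaled CPM (log axis) of 53 of the tested receptor genes in the 4 libraries, ordered by mean level, with circles and squares for the first and second library of a group and open triangles for 0 counts. GPRC5A and ADGRF4 show wide gaps to the left in plus Dox, and GPR160, GPR162 and GPR37 to the right.

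Of the 56 tested genes, 25 rose, 13 fell and 18 did not pass. That is 67.9% called, against 56.9% of all tested genes, with 44.6% higher against 28.4% and 23.2% lower against 28.4%. By at least 2-fold, 11 rose and 7 fell (19.6% and 12.5%, against 6.70% and 6.01% of all tested genes). The 2 groups did not overlap in 47 of the 56 genes (83.9%, against 77.0%). A gene can pass the filter through 1 group alone, and its call then depends in part on the filter. With the filter level rounded to 0.289 CPM this held for 9 genes. Of these 6 were called, among them GPRC5D as lower, and ADGRD1, GPR143, GPR146 and GPR22 as higher. GPR45, which did not pass the threshold, is among the 9 only through that rounding. Among the 47 genes with all libraries over the filter level (0.289 CPM), 21 rose and 11 fell, or 68.1% called against 59.6%, 44.7% against 29.4% higher and 23.4% against 30.2% lower. The median log2 fold change of plus Dox over minus Dox was 0.27 for the 56 genes, also with genes at 0 in a group set to their bound, and 0.0012 for all tested genes. Scaling by library size alone put the median over all tested genes at 0.22, and 32 receptor genes were then higher and 10 lower (76.2% of calls higher, against 65.8% with TMM), and over all tested genes 72.9% of calls were higher against 50.0%.

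**Figure D3:**
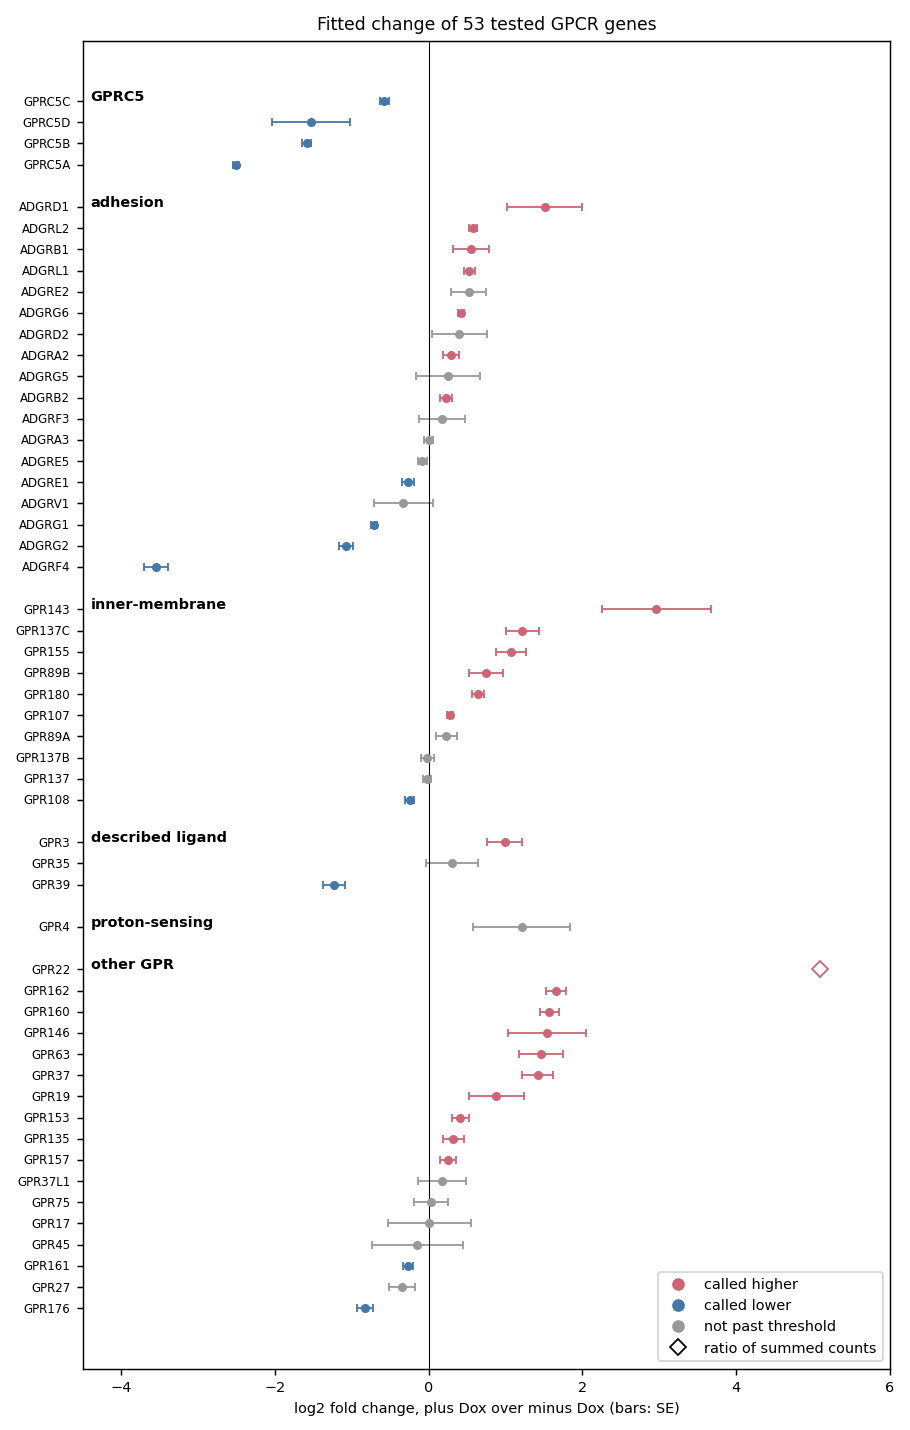
Log2 fold change of plus Dox over minus Dox with its SE for 53 of the tested receptor genes, grouped by kind and coloured by call. GPR22 is drawn at the ratio of summed counts (open diamond), and all 4 GPRC5 genes lie to the left of 0.

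All 4 GPRC5 genes were called lower, GPRC5D on few counts, beside 28.4% of all tested genes. GPRC5A (ENSG00000013588, chromosome 12, 12890782 to 12917937 in hg38, plus strand) had 755 and 749 CPM in minus Dox and 133 and 132 CPM in plus Dox. The groups were far apart and libraries within a group nearly equal. Its means of 752 ± 3.91 and 132 ± 0.569 CPM (SD, n = 2) gave a log2 fold change of −2.51 (SE 0.038, edgeR adjusted p = 2.02e-34), a 5.68-fold fall. GPRC5B (chromosome 16, 19856691 to 19886167), most prominent in brain, had 68.8 and 68.7 CPM in minus Dox and 22.4 and 23.4 CPM in plus Dox. This was a 3.00-fold fall (log2 fold change −1.59, SE 0.063, edgeR adjusted p = 1.11e-21), though 26.7% of its exon bases lie opposite IQCK. GPRC5C (chromosome 17, 74424851 to 74451653) fell less, from 57.6 and 59.1 CPM to 38.5 and 39.3 CPM, a log2 fold change of −0.58 (SE 0.060, edgeR adjusted p = 1.49e-10). GPRC5D, a surface protein of plasma cells and an antibody target in myeloma, was near the lower limit of detection, with 32 and 22 counts in minus Dox and 9 and 9 counts in plus Dox. This gene passed the low-count filter through minus Dox alone, so its call depends in part on the filter. Its log2 fold change of −1.53 (SE 0.51, edgeR adjusted p = 0.0108) did not pass in DESeq2 (adjusted p = 0.0626), nor when minus Dox replicate 1 was left out (0.206), or either plus Dox library (0.0711 without replicate 1 and 0.0591 without replicate 2). Falls of GPRC5A, GPRC5B and GPRC5C passed in all 11 alternatives.

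Because GPRC5 genes are known as retinoic acid targets, 19 genes of retinoic acid reception, handling and response were read beside them. Of 16 tested, 9 fell, 3 rose and 4 did not pass, with a median log2 fold change of −0.27. Over all tested genes 28.4% were called lower and 28.4% higher, with a median of 0.0012. ALDH1A1, which makes retinoic acid from retinal, fell from 10304 ± 31.3 to 4750 ± 26.8 CPM, STRA6, which takes up retinol, from 122 ± 5.01 to 63.6 ± 0.511 CPM (SD, n = 2). The retinal reductase DHRS3 fell from 101 to 71.3 CPM and the retinol dehydrogenase RDH10 from 35.9 to 21.5 CPM. CYP26A1 and CYP26B1, which degrade retinoic acid, did not pass, at 3.79 and 4.14 CPM and at 25.9 and 26.8 CPM (named after their values were seen). Also named after their values were seen, the receptor gene RARB fell from 41.2 to 27.4 CPM (log2 fold change −0.58). ALDH1A3, of the same family as ALDH1A1, rose from 8.59 to 10.7 CPM (log2 fold change 0.31). A part of retinoic acid in the fall of GPRC5 genes was not tested.

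Adhesion receptors moved both ways, as did all tested genes (28.4% called higher and 28.4% lower). Of 29 genes 18 were tested, of which 7 rose, 4 fell and 7 did not pass, and only ADGRE3 and ADGRG4 had no count at all. Among the G subfamily, ADGRG1 (GPR56; chromosome 16, 57610652 to 57665580), which binds type III collagen and the transglutaminase TGM2, had 333 and 355 CPM in minus Dox and 213 and 208 CPM in plus Dox. It fell 1.63-fold (log2 fold change −0.71, SE 0.040, edgeR adjusted p = 1.80e-17). ADGRG6 (GPR126; chromosome 6, 142301854 to 142446266), which drives myelination by Schwann cells and binds type IV collagen, laminin and the prion protein, went the other way. It rose from 182 and 169 CPM to 233 and 236 CPM, a log2 fold change of 0.42 (SE 0.042, edgeR adjusted p = 8.04e-11). ADGRG2, a receptor of epididymal epithelium, fell from 25.1 and 25.9 CPM to 11.2 and 12.9 CPM, a log2 fold change of −1.08 (SE 0.089, edgeR adjusted p = 6.82e-13). ADGRG5 had 0.660 and 0.786 CPM and did not pass, and ADGRG3 and ADGRG7 were not tested, with 5 or fewer counts in any library.

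ADGRF4 (GPR115; chromosome 6, 47685864 to 47722021) had the largest fitted fall among receptor genes with counts in every library. It had 537 and 497 counts in minus Dox and 48 and 37 counts in plus Dox, or 15.9 and 13.3 CPM against 1.36 and 1.10 CPM. The log2 fold change was −3.55 (SE 0.16, edgeR adjusted p = 5.75e-20), an 11.7-fold fall. Its relative ADGRF3 had 1.29 and 1.44 CPM and did not pass, and ADGRF1, ADGRF2 and ADGRF5 had 4 or fewer counts in any library.

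The latrophilins ADGRL1 and ADGRL2, which bind teneurins and FLRT proteins across cell contacts, both rose. ADGRL2 went from 51.4 and 50.9 CPM to 77.1 and 76.0 CPM (log2 fold change 0.58, SE 0.054, edgeR adjusted p = 1.42e-11) and ADGRL1 from 28.8 and 33.4 CPM to 45.9 and 43.9 CPM (0.53, SE 0.070, 4.21e-08). ADGRL3 and ADGRL4 were not tested, with 3 or fewer counts in any library. The brain receptors of the B subfamily were higher too, but by little: ADGRB2 had 21.9 and 23.9 CPM against 25.4 and 28.0 CPM, a log2 fold change of 0.22 (SE 0.079, edgeR adjusted p = 0.0169), and ADGRB1 had 1.45 and 2.48 CPM against 2.90 and 2.89 CPM (0.55, SE 0.23, 0.0447). ADGRB3 had 1 count in all. Neither passed in DESeq2 (0.0779 and 0.179) or without minus Dox replicate 1 (0.148 and 0.501). ADGRB2 also missed without plus Dox replicate 2 (0.284), and ADGRB1 without plus Dox replicate 1 (0.0903) or 2 (0.0850) and after removal of the trend on GC content, exon length and abundance (0.117).

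ADGRE5 (CD97), which binds the complement regulator CD55 and THY1, was among the highest adhesion genes and did not pass. It had 76.8 and 72.3 CPM in minus Dox and 70.3 and 70.4 CPM in plus Dox (log2 fold change −0.082, SE 0.053, edgeR adjusted p = 0.188). It passed as lower without minus Dox replicate 2 (−0.13, 0.0325) and as higher with library size only (0.13, 0.0279), below the shift of all genes under that scaling. ADGRE1, the human counterpart of the mouse macrophage marker F4/80, was at 30.9 and 30.6 CPM and fell to 25.7 and 25.4 CPM (log2 fold change −0.27, SE 0.072, edgeR adjusted p = 0.00167). Of the 9 leukocyte markers, CD14 also fell, from 2.54 and 1.92 CPM to 1.14 and 1.01 CPM, ITGAM had 2.07 and 3.31 CPM against 2.98 and 2.65 CPM, and PTPRC had 0 and 0 CPM against 0.227 and 0.119 CPM. Their part in the ADGRE1 result was not tested. Scaled by library size alone ADGRE1 missed (−0.054, adjusted p = 0.551). The myeloid receptor ADGRE2 had 1.77 and 2.53 CPM and an adjusted p of 0.0550.

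Of the A subfamily ADGRA3 had 45.2 CPM in both groups, with a log2 fold change of −0.0020, and passed as higher only with library size only (0.21, edgeR adjusted p = 0.00279). ADGRA2 (GPR124), a WNT7 co-receptor of brain vessels, had 11.3 and 14.4 CPM against 16.0 and 15.5 CPM, a log2 fold change of 0.29 (SE 0.10, edgeR adjusted p = 0.0149), with 23.1% of its exon bases opposite BRF2. It did not pass in DESeq2 (0.0852), without minus Dox replicate 1 (0.351) or without plus Dox replicate 1 (0.0797). ADGRD1 had 8 and 12 counts against 26 and 29 counts (log2 fold change 1.51, SE 0.49, edgeR adjusted p = 0.00923), and missed in DESeq2 (0.0556), without minus Dox replicate 1 (0.0814) and without plus Dox replicate 2 (0.110). ADGRD2 and the Usher syndrome gene ADGRV1 did not pass, at 0.887 and 1.17 CPM and at 0.992 and 0.784 CPM.

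Promoters are shown for the receptor genes that changed and whose window holds an AP-1 or CRE site, since A-FOS acts on AP-1. RefSeq promoter windows (GRCh38.p14, 250 bases before to 50 after each start) were at hand for 80 of the 112 genes, with 109 starts. They were searched on both strands for TGACTCA, the AP-1 site (TGAGTCA on the other strand), and TGACGTCA, the CRE site, which reads the same on both strands, and no match counts under both. The printed parts are the 250 bases before a start, 5′ to 3′ along the gene, with matches in capitals.
ADGRF4, chr6:47698330-47698579, plus strand: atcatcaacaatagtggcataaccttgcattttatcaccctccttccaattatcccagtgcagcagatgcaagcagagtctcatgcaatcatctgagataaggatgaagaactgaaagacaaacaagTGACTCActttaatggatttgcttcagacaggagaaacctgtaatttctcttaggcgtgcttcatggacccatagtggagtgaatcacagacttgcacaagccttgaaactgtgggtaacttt
ADGRG1, chr16:57628380-57628629, plus strand: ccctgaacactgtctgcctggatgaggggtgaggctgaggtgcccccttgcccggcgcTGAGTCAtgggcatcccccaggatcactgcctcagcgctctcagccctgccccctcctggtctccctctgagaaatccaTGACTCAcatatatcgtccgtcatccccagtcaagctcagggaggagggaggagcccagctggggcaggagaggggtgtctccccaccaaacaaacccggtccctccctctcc
GPR176, chr15:39829277-39829526, minus strand: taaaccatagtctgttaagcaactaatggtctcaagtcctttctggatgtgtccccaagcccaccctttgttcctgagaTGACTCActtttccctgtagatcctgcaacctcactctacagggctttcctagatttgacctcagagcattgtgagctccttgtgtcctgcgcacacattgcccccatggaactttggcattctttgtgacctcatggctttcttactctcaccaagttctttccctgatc
GPR3, chr1:27392372-27392621, plus strand: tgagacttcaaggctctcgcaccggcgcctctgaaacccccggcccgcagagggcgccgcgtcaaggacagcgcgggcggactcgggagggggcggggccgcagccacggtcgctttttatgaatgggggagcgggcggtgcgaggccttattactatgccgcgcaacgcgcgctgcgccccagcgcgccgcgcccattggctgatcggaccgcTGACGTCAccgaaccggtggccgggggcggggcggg
ADGRF4 holds 1 TGACTCA, which begins 123 bases before the start. ADGRG1 holds 2 in the window of 1 of its 3 starts, 192 and 113 bases before it, and GPR176 1 in the window of 1 of its 2 starts, 171 bases before it. All 3 genes fell. GPR3, which rose, has a TGACGTCA 36 bases before its start and a TGACTCA just after it, outside the printed part. Counting a gene once over all its starts, TGACTCA was in 3 of 10 receptor genes that fell, 1 of 14 that rose, 0 of 13 that did not pass and 2 of 43 not tested (ADGRL4 and ADGRE3). GPRC5A and GPRC5C, which fell, are among the genes with no window and were not searched. The motif was in 6.05% of all 27305 genes with a window, in 6.58% of tested genes called lower and in 3.94% of those called higher. TGACGTCA was in 2.25% of all genes and in 2 of the 80 receptor genes (GPR3 and the untested GPR6). A match in a window says nothing of binding.

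Described partners of adhesion receptors were read as a list of 24 genes, of which 7 of 21 tested rose, 6 fell and 8 did not pass (median log2 fold change −0.015). Among all tested genes 28.4% were called higher and 28.4% lower (median 0.0012). Matrix partners were among the largest falls. COL4A1 and COL4A2, the type IV collagen chains that ADGRG6 binds, fell to 109 ± 2.80 CPM from 396 ± 14.7 CPM and to 257 ± 1.92 CPM from 809 ± 24.6 CPM, and TGM2, a partner of ADGRG1, fell from 3009 ± 106 to 1054 ± 4.19 CPM (SD, n = 2). FLRT2, a latrophilin partner, fell from 39.1 to 9.53 CPM. Named after their values were seen, FLRT3 rose from 14.1 to 28.7 CPM and THY1 from 26.1 to 43.3 CPM, and CD55, PRNP and COL3A1 did not pass, at 48.7 and 46.7 CPM, 173 and 171 CPM, and 0.811 and 0.860 CPM. ADGRG6 rose while its collagen partners fell, and ADGRG1 fell together with TGM2.

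Proteins of the Golgi, lysosome and other inner membranes that carry GPR symbols were all tested, and 6 of 10 rose, 1 fell and 3 did not pass. Over all tested genes 28.4% were called higher and 28.4% lower. GPR107, a Golgi protein, had 196 and 192 CPM in minus Dox and 239 and 233 CPM in plus Dox (log2 fold change 0.28, SE 0.040, edgeR adjusted p = 1.35e-07). Its relative GPR108, used by adeno-associated virus to enter cells, fell from 64.8 and 69.0 CPM to 55.0 and 57.6 CPM (−0.25, SE 0.056, 0.000245). GPR108 missed when scaled by library size alone (−0.033, adjusted p = 0.635). GPR180 rose from 18.7 and 16.5 CPM to 27.6 and 27.1 CPM (log2 fold change 0.64, SE 0.082, edgeR adjusted p = 2.56e-08). After removal of that trend its log2 fold change was 0.0010 (adjusted p = 0.992).

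Lower in level were the lysosomal proteins GPR155, a cholesterol sensor, and GPR137C. GPR155 went from 1.95 and 2.45 CPM to 5.54 and 3.73 CPM (log2 fold change 1.07, SE 0.20, edgeR adjusted p = 2.46e-05). GPR137C went from 1.80 and 1.60 CPM to 4.72 and 3.22 CPM (1.22, SE 0.22, 1.12e-05), and to a log2 fold change of 0.54 with the trend removed. Plus Dox replicate 1 was the higher library for both, and neither gene's groups overlapped. GPR137 and GPR137B, the other lysosomal members of that family, did not pass at 65.1 and 63.9 CPM and at 20.4 and 20.1 CPM. GPR143, the melanosome receptor mutated in ocular albinism, had 2 and 3 counts against 14 and 25 counts (log2 fold change 2.96, SE 0.71, edgeR adjusted p = 0.000516), and missed without plus Dox replicate 2 (0.0779). GPR89A and GPR89B, near-identical Golgi channel genes between which reads may have been split, had 5.55 and 6.54 CPM (adjusted p = 0.149) and 1.83 and 3.09 CPM (0.00372; 0.0966 with the trend removed).

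Among receptors with described lipid, metabolite or ion ligands, 4 of 13 genes were tested, of which 2 fell, 1 rose and 1 did not pass. All tested genes had 28.4% called lower and 28.4% called higher. GPR39, a zinc-sensing receptor (chromosome 2, 132416574 to 132646559), had 10.1 and 9.23 CPM in minus Dox and 4.69 and 3.52 CPM in plus Dox. It fell 2.35-fold (log2 fold change −1.23, SE 0.14, edgeR adjusted p = 2.43e-09), and 34.8% of its exon bases lie opposite LYPD1. GPR3, which raises cAMP without a ligand, rose from 1.39 and 1.89 CPM to 3.07 and 3.49 CPM (log2 fold change 0.99, SE 0.23, edgeR adjusted p = 0.000303). GPR35 had 0.911 and 1.12 CPM and did not pass. Of the others GPR6, GPR12, GPR119 and GPR174 were at 0 in all libraries.

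Of the proton-sensing receptors, GPR4 was tested and did not pass, with 4 and 8 counts against 15 and 12 counts (log2 fold change 1.21, SE 0.63, edgeR adjusted p = 0.102). GPR65 was below the filter, with 0 and 2 counts in minus Dox and 22 and 9 counts in plus Dox, a ratio of summed counts per scaled library of 16.1 (95% exact interval 4.09 to 139, for counting error only). GPR132 had 10 and 10 counts against 3 and 4 counts. In counts and in CPM, the groups of GPR4, GPR65 and GPR132 did not overlap, with GPR4 and GPR65 higher and GPR132 lower in plus Dox. These counts are few, and the groups also did not overlap in 77.0% of all tested genes.

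Of the 52 other GPR symbols 18 were tested, of which 11 rose, 2 fell and 5 did not pass, beside 28.4% higher and 28.4% lower over all tested genes. The lowest adjusted p among them belonged to GPR162 and GPR160, both orphans. GPR162 (chromosome 12, 6821545 to 6829972) went from 4.02 and 5.34 CPM to 14.0 and 15.6 CPM, a 3.15-fold rise (log2 fold change 1.66, SE 0.13, edgeR adjusted p = 1.09e-13). GPR160 (chromosome 3, 170037929 to 170085403) went from 4.38 and 5.12 CPM to 13.6 and 14.7 CPM (1.57, SE 0.12, 1.44e-13). For both the lowest plus Dox library was over 2-fold above the highest minus Dox library.

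GPR37, for which prosaposin has been described as a ligand, rose from 2.13 and 1.55 CPM to 4.20 and 5.58 CPM (log2 fold change 1.42, SE 0.20, edgeR adjusted p = 2.52e-07). Its relative GPR37L1 had 1.25 and 1.41 CPM and did not pass, and prosaposin itself (PSAP) fell from 1520 ± 39.3 to 1279 ± 0.341 CPM (SD, n = 2). That fall depends on the scaling: PSAP missed the threshold when scaled by library size alone (−0.034, edgeR adjusted p = 0.350) and passed as higher after removal of the trend on GC content, exon length and abundance (0.39, 4.14e-23). The orphan GPR63 rose from 1.09 and 0.640 CPM to 2.22 and 2.54 CPM (log2 fold change 1.46, SE 0.29, edgeR adjusted p = 5.78e-05). Its groups were apart.

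GPR22, a receptor of heart and brain, had 0 and 1 counts in minus Dox and 16 and 17 counts in plus Dox, a ratio of 34.2 per scaled library (95% exact interval 5.73 to 1392, counting error only; edgeR adjusted p = 6.63e-05). Its fitted log2 fold change of 4.78 moved to 3.99 without minus Dox replicate 1, to 7.05 without minus Dox replicate 2 and to 3.49 after removal of the trend on GC content, exon length and abundance. GPR146 had 16 and 6 counts against 41 and 22 counts (log2 fold change 1.54, SE 0.51, edgeR adjusted p = 0.00939), but 50.3% of its exon bases are shared with genes on the opposite strand. It missed in DESeq2 (0.0579), without minus Dox replicate 2 (0.94, adjusted p = 0.166) and without plus Dox replicate 1 (0.251), and had a log2 fold change of 2.47 without minus Dox replicate 1.

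Smaller rises were seen in GPR153, GPR135, GPR157 and GPR19. GPR153 had 8.61 and 10.4 CPM against 12.2 and 13.1 CPM (log2 fold change 0.41, SE 0.11, edgeR adjusted p = 0.00183) and kept its call in all 11 alternatives. GPR135 (5.47 and 6.22 CPM against 6.82 and 7.85 CPM; 0.32, SE 0.14, 0.0421) and GPR157 (11.5 and 13.2 CPM against 13.8 and 15.6 CPM; 0.25, SE 0.10, 0.0327) were closer to the spread between libraries. Neither passed in DESeq2 (0.173 and 0.138), with no filter on low counts (0.0763 and 0.0642), without minus Dox replicate 1 (0.217 and 0.258) or without plus Dox replicate 2 (0.322 and 0.342). GPR19 had 0.687 and 1.26 CPM (edgeR adjusted p = 0.0343), and missed in DESeq2 (0.139), without any 1 library (0.0782 to 0.179) and with the trend removed (0.0603).

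Only GPR176 and GPR161 fell among the other GPR genes. GPR176, a receptor of the brain's circadian clock (chromosome 15, 39799032 to 39920892), had 12.2 and 13.4 CPM in minus Dox and 7.41 and 6.98 CPM in plus Dox, a 1.77-fold fall (log2 fold change −0.83, SE 0.11, edgeR adjusted p = 9.81e-08). GPR161, which holds Hedgehog signalling down in the cilium, had 45.2 and 47.0 CPM against 38.5 and 38.1 CPM (−0.27, SE 0.063, 0.000394), and missed when scaled by library size alone (−0.052, adjusted p = 0.501). GPR27, GPR75, GPR17 and GPR45 did not pass, with log2 fold changes of −0.35, 0.032, 0.0074 and −0.15.

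Untested genes with at least 10 counts in all included ADGRA1, ADGRG3, GPR34, GPR61, GPR62, GPR65, GPR75-ASB3, GPR78, GPR83, GPR132, GPR141, GPR151, GPR158 and GPR182. Among them GPR83 had 15 and 8 counts against 3 and 1, and GPR141 had 4 and 10 against 2 and 0. GPR75-ASB3 shares 88.3% of its exon bases with GPR75 and ASB3, so its 4 to 6 counts per library are uncertain. The 22 genes at 0 counts include the peptide gene GPR15LG and its receptor GPR15, and GPR21, of whose exon bases 97.4% are shared with RABGAP1. A count of 0 allows up to 3 counts, between 0.0800 and 0.0895 CPM per library, and covers counting error only.

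Genes that act with the receptors were read as 9 lists. Their 118 tested genes included 48 that rose, 32 that fell and 38 that did not pass, with a median log2 fold change of 0.14. For comparison with each list below, all tested genes had 28.4% called higher, 28.4% called lower and a median of 0.0012. Of G protein alpha subunits 8 of 11 tested rose, 1 fell and 2 did not pass (median 0.32). GNAI1, which inhibits adenylyl cyclase, rose from 44.9 ± 1.64 to 92.8 ± 0.510 CPM, and GNA13 from 103 ± 7.31 to 144 ± 5.17 CPM, while its relative GNA12 fell from 124 ± 0.464 to 93.0 ± 0.923 CPM (SD, n = 2). GNAL rose from 13.5 to 26.8 CPM, with 28.1% of its exon bases shared with a gene on the other strand. Beta and gamma subunits rose in 6 of 13 genes and fell in 3 (median 0.081). GNG7 rose from 0.351 to 2.78 CPM, GNB4, with 27.6% of its exon bases shared with the opposite strand, from 23.5 to 43.7 CPM and GNB5 from 47.3 to 58.9 CPM, and GNB2 fell from 295 to 248 CPM (−0.036 when scaled by library size alone, and 0.051 after removal of the trend).

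**Figure D4:**
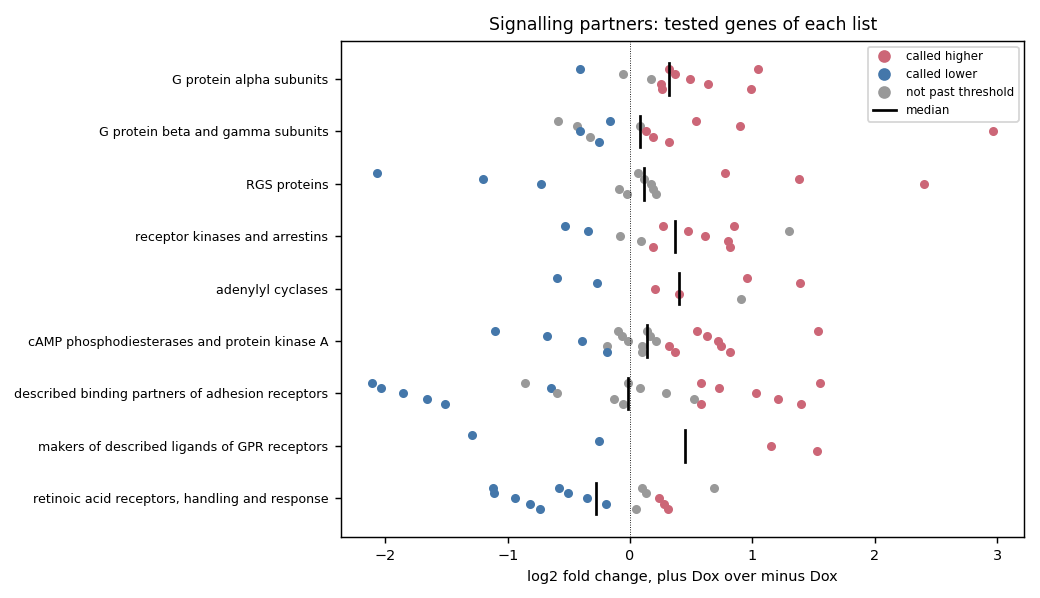
Log2 fold change of plus Dox over minus Dox for each tested gene of the 9 partner lists, coloured by call, with the list's median as a bar. G protein alpha subunits, receptor kinases and arrestins, and adenylyl cyclases have medians of 0.32, 0.37 and 0.40, and the retinoic acid list one of −0.27.

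Genes that act on the receptors, on the G proteins or downstream of them also moved. Receptor kinases and arrestins switch receptors off, and their list also holds the arrestin-like ARRDC genes. On this list 7 of 12 tested genes rose and 2 fell (median 0.37). GRK2 rose from 73.1 to 101 CPM, GRK3 from 15.6 to 27.5 CPM and ARRB1 from 25.4 to 38.7 CPM, and ARRDC3 fell from 15.2 to 10.5 CPM. Adenylyl cyclases rose in 4 of 7 and fell in 2 (median 0.40): ADCY1 rose from 9.94 to 19.4 CPM, ADCY5 from 1.72 to 4.51 CPM and ADCY9 from 79.1 to 104 CPM, and ADCY7, with 41.6% of its exon bases shared with the opposite strand, fell from 23.1 to 15.2 CPM. Of cAMP phosphodiesterases and protein kinase A genes 8 of 21 rose, 4 fell and 9 did not pass (median 0.14). Of the 4 regulatory subunits of protein kinase A, PRKAR2A did not pass, at 106 and 113 CPM, and the others split, with PRKAR1A up from 300 ± 10.4 to 500 ± 1.87 CPM and PRKAR2B from 8.98 ± 1.19 to 26.2 ± 2.12 CPM, and PRKAR1B down from 83.6 ± 3.60 to 39.0 ± 1.59 CPM (SD, n = 2). The catalytic subunit PRKACA rose from 127 to 186 CPM. RGS proteins, which speed the shutdown of G proteins, rose in 3 of 13 and fell in 3 (median 0.11), with RGS5 up from 4.85 to 25.6 CPM, RGS9 from 12.7 to 21.9 CPM, RGS20 down from 15.3 to 6.65 CPM and RGS2 from 10.9 to 6.58 CPM. The list of makers of described ligands also holds HSD3B7, which breaks a ligand down. Of the 4 tested genes on it, PSAP and HSD3B7 fell, the latter with 64.6% of its exon bases opposite another gene. CYP7B1 and PSAPL1 rose, with PSAPL1 at only 0.226 and 0.658 CPM (edgeR adjusted p = 0.0158). PSAPL1 missed in DESeq2 (0.0874), without minus Dox replicate 2 (0.140), without plus Dox replicate 2 (0.294) and in the trend-corrected fit with the replicate block (0.0573).

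Receptor genes that rose and fell differed in level. The 25 that rose had a median of 3.42 CPM over both groups and the 13 that fell one of 28.1 CPM, against 23.8 and 40.7 CPM for all tested genes called higher and lower. Their median GC contents were close, 51.7% and 52.0%, whereas all genes called higher and lower had 44.1% and 52.9%. Median exon lengths were 5952 and 5119 bases.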

How the data were processed

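PolyA RNA was sequenced from 4 A549 libraries, 2 in each group. Each deposited file holds the raw counts of 1 library per Ensembl gene identifier, per the file headers and the values. Per the submitters' processing notes the build was hg38 and the tools included featureCounts 2.0.3, STAR 2.7.10b, cutadapt 4.0 and DRAGEN, with no role given. The kit was stranded per the labels' protocols. The annotation and the strand setting of counting were not given in the sources used here, so reads of overlapping genes cannot be told apart.

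Symbols came from a symbol table (111 receptor genes) or GENCODE 29 (1), and exon length, GC content and coordinates from GENCODE 29. Genes were filtered with edgeR 4.0.16's filterByExpr, scaled by TMM and tested with its quasi-likelihood test in R 4.3.3, with Benjamini-Hochberg adjustment. The SE is the log2 fold change divided by the root of the F statistic. Alternatives were library size only, DESeq2's size factors, DESeq2 1.42.0, no filter, leaving out each library, a replicate block, and a smooth per-library trend on GC content, length and abundance removed, also with the block. The script was tested on simulated data. Receptor genes, lists and the naming rule were chosen with earlier results of these data known. Some receptor genes enter the counts and sums but are not reported here by name; of the others, those past the threshold with separate groups and either a 2-fold change or 5 CPM, and the 5 of highest level per kilobase, are given in full, and from each list up to 4 genes of lowest adjusted p.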

Additional observations from a re-analysis of the deposited data

How the results depend on the processing

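Of the 38 receptor genes called, 9 of those lower and 14 of those higher kept call and direction in all 11 alternatives, and 4 lower and 11 higher lost the call in at least 1. Counts of receptor genes called higher and lower stayed within 1.5 times 25 and 13 in every alternative, with 19 to 24 and 12 to 15 when 1 library was left out, 17 and 12 in DESeq2 and 21 and 13 after removal of a trend on GC content, exon length and abundance. In DESeq2 17 of 56 receptor genes were higher and 12 lower, against 23.6% and 24.2% of all tested genes. Among calls there, 58.6% were higher for receptor genes and 49.4% for all tested genes, against 65.8% and 50.0% in the main fit. With the trend removed these shares were 61.8% and 53.7%. Over all tested genes library size only gave 7865 higher and 2925 lower, against 5133 and 5132. No effect of replicate number shared by the groups was seen: differences between replicates 1 and 2 correlated across genes at 0.00226 between the groups. This cannot tell whether libraries were prepared in pairs, which the labels do not say. A replicate block gave 25 receptor genes higher and 13 lower again, and 5219 and 5195 over all tested genes.

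Direction turned in some genes that did not pass and in PSAP and GNB2, and the cause was not tested. With library size only the log2 fold changes were 0.21 for ADGRA3, 0.13 for ADGRE5, 0.19 for GPR137, 0.20 for GPR137B and 0.060 for GPR45. With the trend removed, and with the block added, they were 0.0033 and 0.0031 for ADGRE5, 0.030 and 0.029 for GPR137, 0.17 and 0.18 for GPR137B, −0.14 and −0.12 for GPR17, −0.030 and −0.029 for GPR89A, 0.051 in both for GNB2 and 0.39 in both for PSAP. GPR17 lay at −0.0028 with no filter. Depth limits the genes under about 1 CPM, where calls rest on few counts. Leaving out 1 library, log2 fold changes ranged over ADGRA3 −0.038 to 0.029, ADGRD2 −0.21 to 0.83, ADGRF3 −0.10 to 0.46, GPR137B −0.087 to 0.031, GPR17 −0.30 to 0.40, GPR37L1 −0.092 to 0.48, GPR45 −0.41 to 0.11 and GPR75 −0.16 to 0.24.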

Other observations

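Receptor genes that neighbour each other on a chromosome did not always share a direction (pairs were picked by position, under 300 kb apart, after the values were seen). On chromosome 12 GPRC5A and GPRC5D lie 22.8 kb apart and both fell, while GPR19, 195 kb from GPRC5A, was called higher. The calls of GPRC5D and GPR19 rest on few counts and were lost in DESeq2. On chromosome 16 ADGRG1, which fell, lies 19.0 kb from ADGRG5, which did not pass, and 2.61 kb from the untested ADGRG3. On chromosome 19 GPR108 and ADGRE1 lie 150 kb apart and both fell, though both lost the call with library size only. ADGRL1, which rose, lies 174 kb from ADGRE5, which did not pass.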
